A study of Mus musculus with 18 samples.

Results

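The cells described here are the macrophages of a mouse Ras-driven glioma that carried more UMIs of microglial than of monocyte genes in a 10x Chromium library. A UMI is a unique molecular identifier, which marks 1 captured RNA molecule. Cells were kept at 500 or more UMIs, 300 or more genes and at most 20% mitochondrial UMIs. A kept cell counted as myeloid when 3 or more of C1qa, C1qb, C1qc, Tyrobp, Fcer1g and Csf1r were detected and their sum reached 2 per 1000 UMIs. A myeloid cell was a member when its UMI sum of P2ry12, Tmem119, Cx3cr1, Fcrls and Gpr34 was above that of Ccr2, Plac8, Itga4, Ms4a4c and Ly6c2. The rule found 346 members among 548 myeloid cells, 3320 kept cells and 4384 barcodes. The mirror of the rule gave 123 monocyte-derived cells, and 79 myeloid cells had equal sums. The rule used the UMI counts of this library, so every level of these cells is a description without a test. Only the bulk libraries below, which the rule did not use, carry tests.

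The study profiled gliomas driven by HRasV12 with dominant negative p53, and gliomas driven by PDGFB, in Boy/J mice. The 10x library and a Drop-seq library came from Ras tumours labelled untreated, each with 1 sample, dissociated with collagenase IV, filtered and lysed for red cells. Whole Ras tumours were sequenced in bulk from 4 vehicle and 4 PLX3397 samples, dosed daily by oral gavage from day 7 after implantation until moribund, with PLX3397 at 100 mg/kg. PLX3397 is a small-molecule inhibitor of the CSF1 receptor kinase. CD11b+ cells of perfused PDGFB tumours came from 1 vehicle and 2 PLX3397 samples dosed for 3 days from day 14, isolated with magnetic beads. The 4 vehicle Ras libraries also carry the treatment label untreated, and no animal ages are given. Cultured lines of Ras tumours (2 samples) and PDGF tumours (3 samples) were also sequenced.

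Microglia are the resident macrophages of the brain. They arise from yolk sac progenitors, renew themselves in place and depend on CSF1R signalling. At rest they express a homeostatic program that includes P2ry12, Tmem119, Gpr34 and Sall1. In gliomas they mix with macrophages that enter from blood monocytes, which carry Ccr2 and Plac8 at entry, and resident cells in disease can lower the homeostatic genes and raise Apoe, Spp1, Gpnmb and Cst7.

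Members were defined mostly by 2 of the 5 genes. Fcrls, an Fc receptor-like scavenger protein, had a UMI in 315 of the 346 cells, and Cx3cr1, the fractalkine receptor, in 242. P2ry12, the ADP receptor of microglial processes, was detected in 126 cells, Tmem119, a membrane protein of microglia, in 86 and Gpr34, a lysophosphatidylserine receptor, in 65. Fcrls and Cx3cr1 supplied 52.4% and 36.1% of the 6916 UMIs of the 5 genes. Only 172 members held any UMI of P2ry12, Tmem119 or Gpr34, while 339 held Fcrls or Cx3cr1. In 100 cells a single gene of the 5 was detected, which was Fcrls in 79 of them, and 21 cells carried all 5. Levels are counts per 1000000 (CPM) of the pooled UMIs of a set. Fcrls stood at 687.4, Cx3cr1 at 473.8, Tmem119 at 67.8, P2ry12 at 55.8 and Gpr34 at 28.1.

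The label microglia-like was borne out only in part. Of 12 homeostatic microglia genes at 50 CPM or more, 8 were at least 2-fold higher than in monocyte-derived cells and 0 lower. Over all 3087 genes at that level, 6.15% were higher and 12.1% lower. Sall1, the transcription factor that maintains microglial identity, stood at 8.35 CPM in members (95% Poisson interval 6.07 to 11.2) and at 12.7 CPM in the cells that were not myeloid. Monocyte-derived cells held less of it, at 3.01 CPM. Cultured tumour lines held 43.9 to 185.5 CPM of it in bulk counts, so the non-myeloid level is not one of cells without Sall1. Ms4a7, a membrane protein known from macrophages that are not parenchymal microglia, stood at 355.8 CPM, against 102.3 in monocyte-derived cells. Mrc1, the mannose receptor of border macrophages, stood at 140.7 CPM, against 21.1 in monocyte-derived cells. The members are therefore called Fcrls and Cx3cr1 macrophages here. All intervals cover counting error only, and Ms4a7 and the other genes outside the stated rule for names were chosen after their values were seen.

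In the mm10 (GRCm38) annotation of GENCODE vM21, Fcrls lies on chromosome 3 from 87250758 to 87263738 and Tmem119 on chromosome 5 from 113793729 to 113800516, both on the minus strand with no overlapping gene. P2ry12 lies on chromosome 3 from 59216272 to 59262871, on the strand opposite to Med12l, which overlaps it. Gpr34 lies on chromosome X from 13632089 to 13640858, opposite to Cask. Since strand use in counting is not given in the sources used here, bulk counts of P2ry12 and Gpr34 may hold reads of these partners. Cx3cr1 is annotated on chromosome 9 from 119901616 to 120069879, a span that 9 other annotated genes overlap on either strand, so its bulk counts carry the same limit.

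The margin of the rule was often narrow. The median member had 8 more microglia than monocyte UMIs (quartiles 3 and 29, maximum 158). Just inside the threshold, 55 cells stood at a margin of 1 and 29 at a margin of 2. Just outside it, 79 cells stood at 0, of which 71 held no UMI of either set, and 20 stood 1 UMI on the monocyte side. Margins followed depth: the 84 cells at 1 to 2 had a median of 2292 UMIs and the 151 cells above 10 had 25741. With cells thinned to 2000 UMIs, Ms4a7 was detected in 34.7% of cells at margins of 1 to 2, 29.2% at 3 to 5, 43.9% at 6 to 10 and 42.7% above 10. Before thinning these shares were 36.9%, 47.7%, 67.4% and 76.8%.

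The library held 59.3 M UMIs (M, 1000000). Median depth per cell was 7409.5 UMIs in members, 10610 in monocyte-derived cells, 3245 in 66 neutrophil-like cells and 15679 in 2127 cells with glial and tumour markers. Members made up 63.1% of myeloid cells (95% Clopper-Pearson interval 59.0 to 67.2) and 10.4% of kept cells (9.40 to 11.5). Leaving Fcrls out of the rule lowered the share of myeloid cells to 45.1%.

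**Figure D1:**
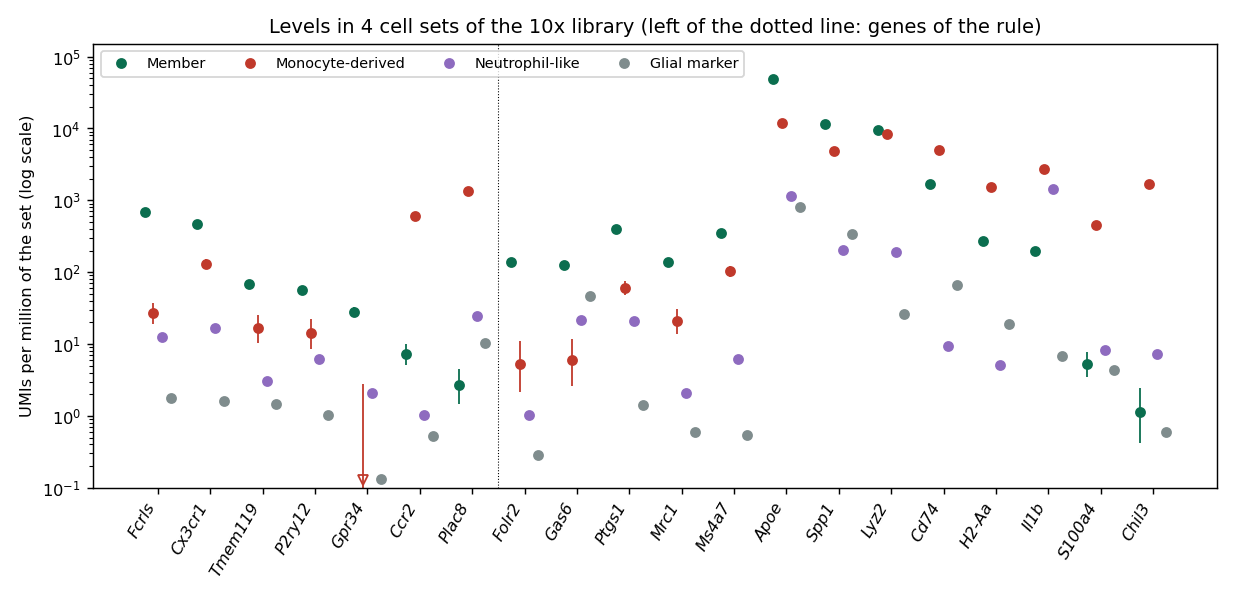
Pooled levels in CPM (vertical axis, logarithmic) of 20 genes in members, monocyte-derived, neutrophil-like and glial marker cells of the 10x library. Lines are 95% Poisson intervals, drawn for the first 2 sets, and an open triangle marks no UMI. The rule used the 7 genes left of the dotted line. Folr2, Gas6 and Ptgs1 sit higher in members, Il1b, S100a4 and Chil3 in monocyte-derived cells, and Lyz2 is close in both.

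Among the leading genes, Folr2, Hpgds, Syngr1 and Olfml3 had the highest ratios of members over monocyte-derived cells. Leading genes were the 30 with the largest ratio among genes at 100 CPM or more and at 4 times the level of non-myeloid cells or more. Folr2, the beta folate receptor of macrophages, stood at 139.7 CPM in members and 5.27 CPM in monocyte-derived cells, a ratio of 23.2 (interval 12.8 to 66.2). Hpgds, which makes prostaglandin D2, stood at 100.8 against 9.03 CPM. Ptgs1, cyclooxygenase 1, stood at 404.9 against 60.2 CPM, a ratio of 6.65. Ltc4s, the leukotriene C4 synthase, stood at 284.6 against 58.7 CPM. Ptgs2, cyclooxygenase 2, went the other way, at 15.2 against 101.6 CPM, and was itself a leading gene of monocyte-derived cells.

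Apoe, the apolipoprotein of brain lipid transport, took 49411 CPM in members and 11836 in monocyte-derived cells, a ratio of 4.17, against 821.3 CPM in non-myeloid cells. Apoc1 stood at 122.3 against 18.8 CPM and Apoc4 at 196.5 against 36.1 CPM. Olfml3, a secreted protein of microglia, stood at 281.5 against 37.6 CPM, and Gpnmb, a glycoprotein of lipid-laden macrophages, at 204.1 against 27.1 CPM. Mrc1 was 6.46 times higher in members, a log2 ratio of 2.69 that was 1.32 with cells thinned to 2000 UMIs before the rule. Syngr1 and Itga6, the laminin receptor chain, were 7.35 and 5.52 times higher, Hebp1 5.09 times, and the intervals of these ratios all stayed above 3.7.

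Of the 30 leading genes of monocyte-derived cells, Chil3, Ccl17 and S100a4 had the lowest ratios. Chil3, a chitinase-like protein of alternatively activated macrophages, stood at 1.14 CPM in members (6 UMIs) and 1664 in monocyte-derived cells. S100a4 stood at 5.32 against 452.9 CPM, S100a6 at 42.3 against 1299, and Ccl24, an eosinophil chemokine, at 15.95 against 683.2 CPM. Il1b, the interleukin 1 beta cytokine, was 14.0 times lower in members, at 195.3 against 2742 CPM. Neutrophil-like cells held 1458 CPM of it, in a pool that also held 3980 CPM of glial and tumour markers. Slpi, Napsa, Ltb4r1, Cxcl3, F10, Hp, Ccl17 and Ahnak were each more than 20 times lower in members. Lyz2, a lysozyme gene on the monocyte-derived macrophage list, was nearly level at 9623 against 8435 CPM. Csf1r, part of the rule, stood at 549.4 against 374.7 CPM.

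Across all 1544 genes at 100 CPM or more, 99 (6.41%) were at least 2-fold higher in members and 219 (14.2%) at least 2-fold lower. At 50 CPM or more, the level used for gene lists, 190 of 3087 genes (6.15%) were higher and 374 (12.1%) lower, with a median log2 ratio of -0.07. These shares are the background for the list counts that follow.

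Of the 12 homeostatic microglia genes at level, 8 were at least 2-fold higher in members and 0 lower, with a median log2 ratio of 1.69. Lag3 stood at 68.0 against 15.1 CPM and Slco2b1, an anion transporter, at 52.2 against 6.02. Siglech, a sialic acid-binding lectin of microglia, stood at only 22.8 against 1.51 CPM. Disease-associated microglia genes had 11 of 18 higher and 0 lower, with a median of 1.20. Cst7, cystatin F, stood at 71.6 against 6.77 CPM, Trem2, the lipid receptor, at 554.7 against 214.4 and Spp1, osteopontin, at 11373 against 4931. Timp2, a metalloprotease inhibitor, stood at 334.9 against 72.2 CPM and Igf1, a growth factor, at 89.6 against 22.6. Border macrophage genes had 4 of 5 higher, among them Pf4 at 729.9 against 334.1 CPM and Stab1 at 205.8 against 84.3. Members thus combined homeostatic, disease-associated and border genes at the level of the pool.

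Uptake and digestion genes sat moderately higher. All 12 lysosome genes at level were above a ratio of 1, with a median log2 ratio of 0.57, although only 1, Lgmn (legumain), passed 2-fold at 1750 against 717.8 CPM. Lipid uptake genes had 3 of 7 higher, among them Mertk, the receptor for dying cells, at 88.8 against 27.8 CPM and Msr1, a scavenger receptor, at 405.9 against 177.6. Gas6, the MERTK ligand in the cytokine and growth factor list, stood at 126.1 against 6.02 CPM, and at 47.0 CPM in non-myeloid cells. The 3 purine receptor genes at level had ratios between 1 and 2, with P2ry6 at 96.2 against 59.4 CPM. C4b of the complement list stood at 148.3 against 27.8 CPM.

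Antigen presentation, interferon and activation genes sat lower. MHC class II genes had 4 of 6 at least 2-fold lower and a median of -1.86. H2-Aa, a class II alpha chain, stood at 268.6 against 1518 CPM, H2-Eb1 at 271.3 against 1408 and Cd74, the invariant chain, at 1679 against 4942. Interferon response genes had 10 of 14 lower, with Rsad2 at 94.3 against 793.0 CPM and Ifit1 at 41.6 against 264.8. The monocyte-derived macrophage list had 13 of 19 lower and 1, Ms4a7, higher.

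Among 16 immediate early and heat shock genes 7 were lower and 0 higher, including Btg2 at 224.2 against 784.0 CPM and Dusp1 at 314.9 against 926.2. Of the transcription factors, Cebpb stood at 890.1 against 2988 CPM, Klf4 at 63.6 against 312.2 and Nr4a1 at 82.2 against 334.1. Bhlhe41, a factor of tissue macrophages, was the single one at least 2-fold higher, at 75.4 against 12.04 CPM. Chemokines were mixed, with 2 higher and 4 lower of 11, and Ccl4 near level at 206.2 against 171.5 CPM. Checkpoint genes had 4 of 10 lower, among them Cd80 at 5.70 against 60.9 CPM and Cd274, the PD-L1 gene, at 43.1 against 106.1. Hypoxia and glycolysis genes had 1 of 9 lower, Slc2a1 at 101.4 against 264.1 CPM, and 0 higher. Growth factor receptor genes had 2 of 4 lower. Csf1 stood at 70.1 against 39.1 CPM, while Il34, Kit and Flt3 were each below 1 CPM in members.

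**Figure D2:**
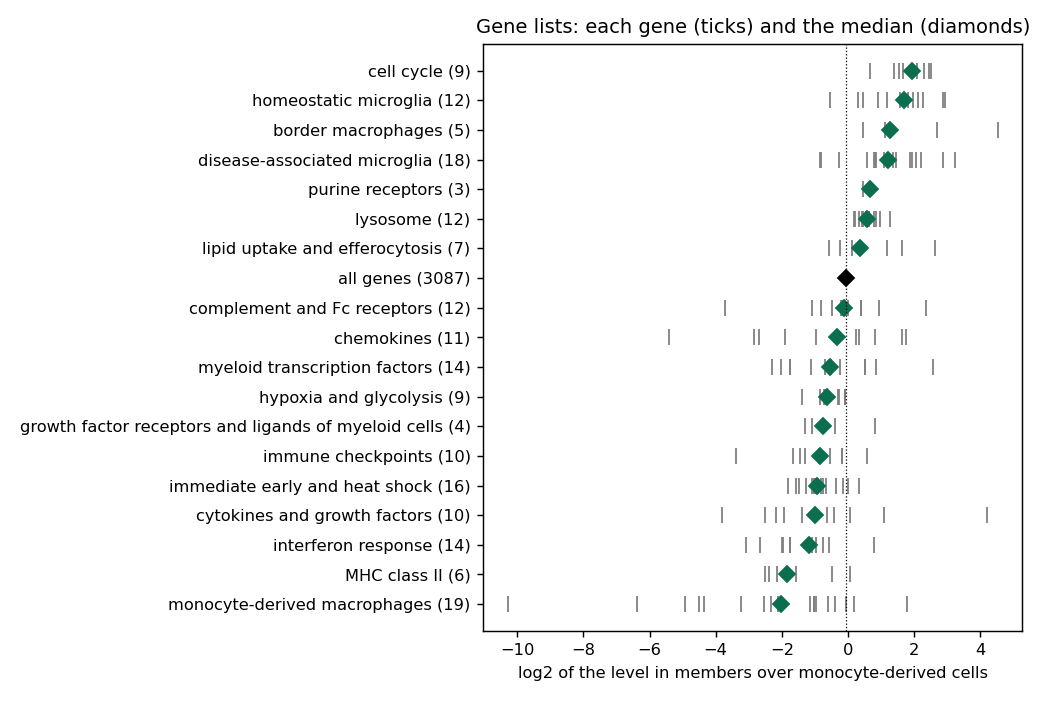
Log2 ratio of the pooled level in members over monocyte-derived cells (horizontal axis) for 18 gene lists, with the number of genes at 50 CPM or more in brackets. Ticks are genes, diamonds are medians, and the black diamond and dotted line mark all 3087 genes at -0.07. Cell cycle and homeostatic lists have the highest medians, at 1.95 and 1.69, and monocyte-derived macrophage and MHC class II lists the lowest, at -2.03 and -1.86.

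RNA of other cell types was present beside the macrophage RNA. The 10 glial and tumour markers summed to 961.9 CPM in members, 443.2 in monocyte-derived, 3980 in neutrophil-like and 5411 in glial marker cells. Of the members 162 had 3 or more of these markers, and of the 66 neutrophil-like cells 28 did. Erythroid markers summed to 140.1 CPM in members and 42.1 in monocyte-derived cells. The 8 neutrophil markers summed to 57.0 CPM in members, 812.6 in monocyte-derived cells, and Ly6g was at 0 in members. Of 7 T cell markers Cd3e, Cd3d, Cd3g, Cd8a and Lck were at 0, and Xcr1, Cd209a and Ccr7 of the dendritic list were also at 0. No doublet caller was run, and the part of mixed droplets in these levels was not tested. Without cells holding 3 or more glial or neutrophil markers, 122 genes were higher and 298 lower at 100 CPM, and the log2 ratio of Mrc1 was 4.69 in place of 2.69.

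The 346 members split into 5 clusters when the 16 genes of the rule were left out. Clusters are given by number, without a name or a test, since their genes were also used to cluster. Cluster 0 (134 cells, median 23984 UMIs) supplied 60.8% of all member UMIs, so pooled levels weigh it most. Cluster 1 (111 cells) had a median of 3293 UMIs, cluster 2 (34 cells) 7616, cluster 3 (37 cells) 2107 and cluster 4 (30 cells) 14278.

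Cluster 3 carried most homeostatic genes at their highest level. Tmem119 stood there at 292.7 CPM (198.9 to 415.4), Gpr34 and Siglech at 264.4 each (175.7 to 382.1) and Fcrls at 1973, whereas Tmem119 reached at most 118.7 and Gpr34 37.3 in any other cluster. P2ry12 at 122.7 CPM (65.3 to 209.9) overlapped the intervals of cluster 4 and, at the edge, of clusters 0 and 1. Cst7 stood at 925.2 CPM, Olfml3 at 1142, Trem2 at 1256 and Csf1r at 868.6. Ctsd, a lysosomal protease, reached 16484 CPM and Cst3, cystatin C, 8082, above 4278 and 1634 in cluster 0. Of 16 homeostatic genes at level 11 were at least 2-fold higher than in the other members, against 9.3% of all 2937 genes. The summed list stood at 9706 CPM. Sparc, on this list, stood at 1709 CPM, but non-myeloid cells also held 838.6 CPM of it.

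The same 37 cells held little of the border, antigen presentation and Spp1 signal of the pool. Ms4a7 stood at 18.9 CPM (2 UMIs) against 112.5 to 442.5 in the other clusters, and Mrc1 and Pf4 at 9.44 CPM each (1 UMI). Gpnmb and Igf1 had no UMI, with an upper limit of 34.8 CPM. Spp1 stood at 972.5 CPM against 6697 or more elsewhere, Cd74 at 151.1, H2-Aa at 18.9 and Lyz2 at 2917. Apoe, at 49529 CPM, lay within the 25609 to 59606 of the others. Of 16 immediate early genes 14 were at least 2-fold lower, against 12.9% of all genes, and 4 of 6 MHC class II genes were lower. The low immediate early level was shared with cluster 1. This list summed to 1596 CPM in cluster 3, 1876 in cluster 1, 3772 in cluster 2, 5039 in cluster 4 and 8664 in cluster 0. Cluster 0 weighs most in the other members. Disease-associated genes split evenly, with 6 higher and 6 lower of 18.

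Cluster 3 also had the highest share of cells with Tmem119 and with Fcrls at equal depth, while the other clusters changed order. With every cell thinned to 1000 UMIs, Tmem119 was found in 9 of 36 cells of cluster 3 (25%, 12.1 to 42.2), 4.62% of cluster 0 and 1.87% of cluster 1, against 0% of 119 monocyte-derived and 0.151% of 1990 glial marker cells. Unthinned shares were 40.5%, 34.3% and 8.11%. Ms4a7 was found in 0 of 36 cells of cluster 3 (upper limit 9.74%), 28.5% of cluster 0, 24.3% of cluster 1 and 27.6% of cluster 4. Cluster 2 had it in 15.2% of cells (5.11 to 31.9), an interval that overlaps that of cluster 3, and monocyte-derived cells in 2.52%. Unthinned, Ms4a7 was found in 5.41% of cluster 3 and 82.8%, 54.1%, 44.1% and 70% of clusters 0, 1, 2 and 4. Fcrls was found in 80.6% of thinned cluster 3 cells, 39.4% to 61.7% of the other clusters and 0.840% of monocyte-derived cells. Unthinned, 91.9% of cluster 3 and 79.4% to 93.3% of the others had it.

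Haemoglobin genes also led cluster 3 by level, with Hbb-bs at 2700 CPM against 25.4 in the other members and Hba-a2 at 811.9 against 3.1. Of its 37 cells 16 had a haemoglobin or Alas2 UMI, and so did 145 of all 346 members. These shares are at unequal depth, with a median of 2107 UMIs in cluster 3 and 7409.5 in all members. In clusters 0 and 4 the counts were 63 of 134 and 17 of 30 cells. The 21 cells of cluster 3 without such a UMI had Tmem119 at 346 CPM, Siglech at 296.6 and Ms4a7 at 16.5. Mbp, a myelin gene, was at 557 CPM there from 4 cells, and 9 of the 37 cells had 3 or more glial markers. At a clustering resolution of 1.0 the group had 38 cells, 36 of them shared, and at 0.3 it merged into a cluster of 180. The 37 cells hold 2.01% of member UMIs, and without them the ratio of members to monocyte-derived cells was 7.98 for Siglech.

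The other clusters differed in activation, platelet and glial genes. Cluster 0 carried immediate early and cytokine genes: 14 of 16 immediate early genes were at least 2-fold higher than in other members, against 5.77% of 3031 genes (10.1% were lower). Cxcl2 stood at 334.5 CPM there against 18.3 to 129.3 elsewhere, Il1b at 268.3, Ccl4 at 295.5 and Gpnmb at 298.3. Mmp12, a macrophage elastase, led the cluster at 225.2 CPM but came from 21 of 134 cells. In cluster 0, 82 cells had 3 or more glial markers, and its depth was the highest of the 5, so the part of mixed droplets was not tested here either. Cluster 1 was the quiet counterpart, with 13 of 16 immediate early genes at least 2-fold lower against 7.3% of 2781 genes (1.33% were higher). Pf4 stood at 1470 CPM in cluster 1, Ccl12, a monocyte chemokine, at 1578 and Folr2 at 226.3. The platelet genes Nrgn, Gp9 and Ppbp led it, each from at most 3 cells, whereas Pf4 was found in 67 of its 111 cells.

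Cluster 2 was led by Lhfpl3, Rtn1 and other glial genes. Olig1, an oligodendrocyte lineage factor, stood at 953.5 CPM and Ptprz1 at 704.6, and 25 of its 34 cells had 3 or more glial markers, with 7.98% mitochondrial UMIs. Fcrls stood lowest there, at 308.0 CPM, and of 18 disease-associated genes 12 were at least 2-fold lower, against 14.9% of all 3532 genes (24.2% were higher). Cluster 4 was led by division genes, with 19 of 19 cell cycle genes at level at least 2-fold higher, against 6.01% of 2960 genes (4.09% were lower).

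**Figure D3:**
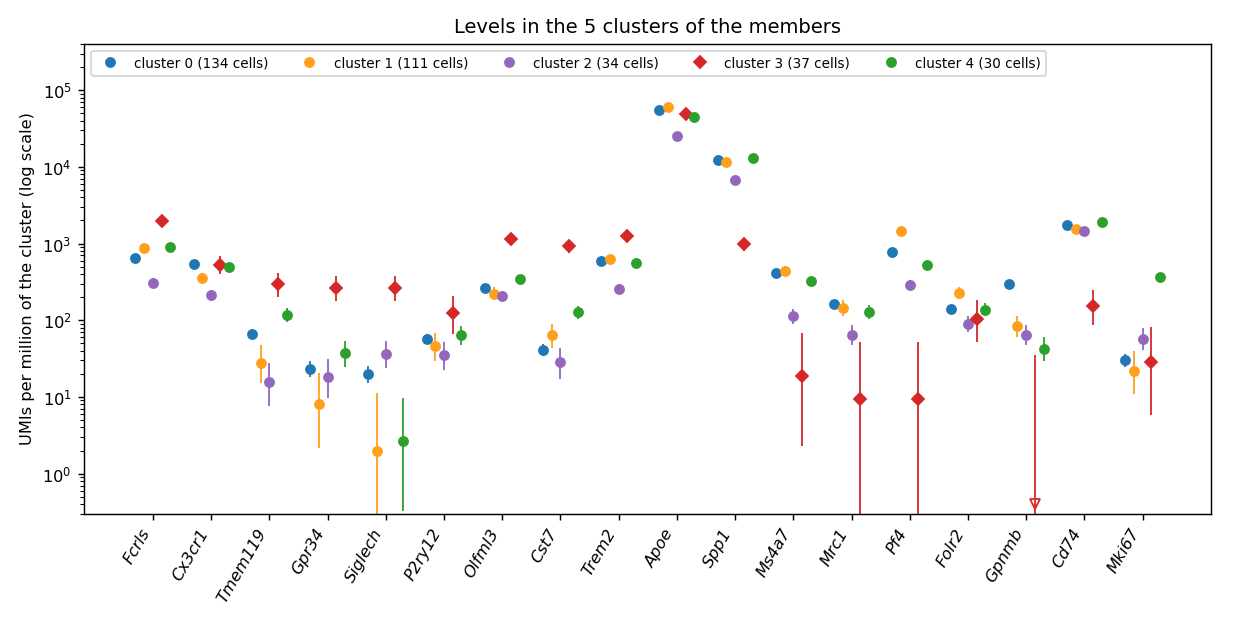
Pooled levels in CPM (vertical axis, logarithmic) of 18 genes in the 5 clusters of members. Lines are 95% Poisson intervals, cut at the lower edge of the axis, and the open triangle marks no UMI. Cluster 3 (diamonds) sits above the other clusters for Tmem119, Gpr34, Siglech, Olfml3 and Cst7, and below them for Spp1, Ms4a7, Mrc1, Pf4 and Cd74.

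Cell cycle genes were detected together in a share of members. After thinning to 2000 UMIs, 38 of 288 members (13.2%, interval 9.51 to 17.7) had 3 or more cell cycle genes. The same held for 3 of 111 monocyte-derived cells (2.70%, 0.561 to 7.70), 3 of 54 neutrophil-like cells (5.56%, 1.16 to 15.4) and 294 of 1822 glial marker cells (16.1%). Neutrophils do not divide, but 28 of all 66 neutrophil-like cells had 3 or more glial markers. Their share is thus not one of neutrophils alone, and its interval overlaps that of members. Shares without thinning were 45.1% in members, 22.8% in monocyte-derived, 15.2% in neutrophil-like and 51.5% in glial marker cells. Of the 38 members 24 lay in cluster 4, whose thinned cells numbered 28. Cluster 4 held Mki67 at 370.7 CPM and Top2a at 457.3 together with Fcrls at 914.7, Ms4a7 at 326.7 and Tmem119 at 118.7. In cluster 4, 15 of 30 cells had 3 or more glial markers, and the tumour cells of this library also divide, so the part of mixed droplets was not tested.

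The same rule was applied to the Drop-seq library, an untreated Ras tumour sample that did not enter the choice of members, with minima of 300 UMIs and 200 genes. It found 113 cells among 166 myeloid cells (68.1%, 60.4 to 75.1) and 4901 kept cells (2.31%), with a median of 1226 UMIs. The monocyte side held 15 cells, too few to set levels firmly. No barcode was shared by the 2 libraries, but each method uses its own barcodes, so this says nothing on their independence. Fcrls was detected in 61 of the 113 cells, Cx3cr1 in 66, Tmem119 in 28, P2ry12 in 13 and Gpr34 in 8, so Fcrls and Cx3cr1 led here too. Of the 30 leading genes of the 10x members 29 were listed, and 28 of these stood at least 4 times above non-myeloid Drop-seq cells. Of the 30 leading genes of monocyte-derived cells, 15 did so and 4 exceeded 100 CPM, against 24 of the former. The 4-fold bar is not particular to genes of the members. It was also passed by 10 of 10 MHC class II and 14 of 20 monocyte-derived macrophage genes, and by 0 of 19 cell cycle genes. The share over all genes was not computed.

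Homeostatic genes stood higher in the Drop-seq cells. Tmem119 was at 230.9 CPM (interval 164.2 to 315.6) there and 67.8 in 10x, and Siglech at 165.8 against 22.8. Cst7 stood at 349.3 against 71.6 CPM. MHC class II genes were also higher, with Cd74 at 5553 against 1679 CPM and H2-Aa at 2232 against 268.6. Spp1 was lower at 2658 against 11373 CPM and Pf4 at 159.8 against 729.9. Fcrls at 657.1 against 687.4, Ms4a7 at 432.2 against 355.8, Mrc1 at 118.4 against 140.7 and Apoe at 42660 against 49411 CPM were close. Each method had 1 sample, so differences between the tumours and between the methods cannot be told apart.

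**Figure D4:**
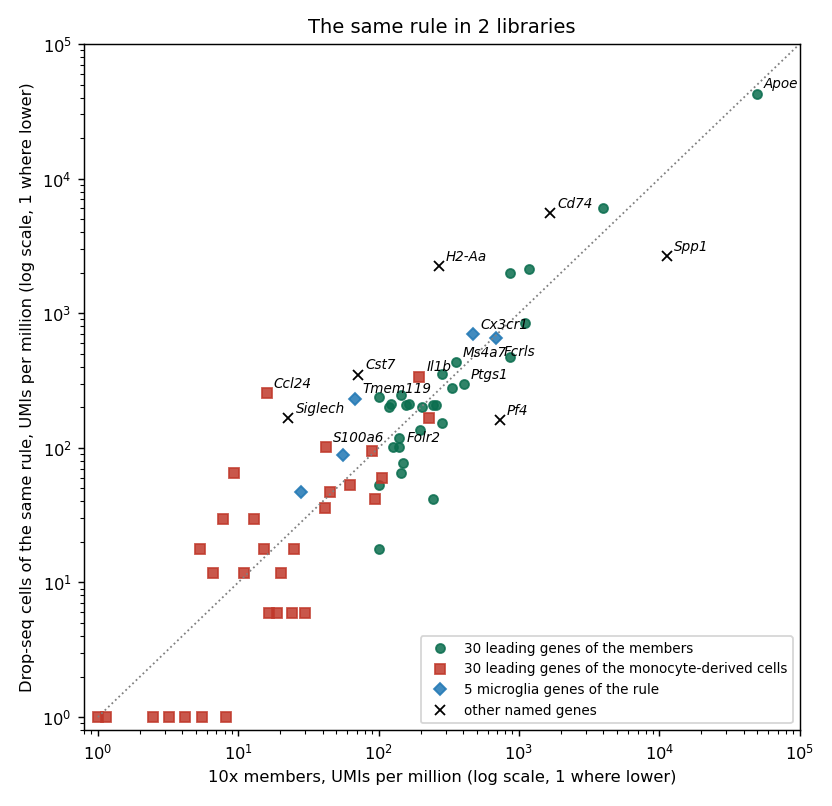
Pooled levels in CPM in 10x members (horizontal axis) and in the Drop-seq cells of the same rule (vertical axis), both logarithmic, with values under 1 drawn at 1. Points near the dotted line have equal levels. Apoe, Fcrls and Ms4a7 lie near it, Tmem119, Siglech, Cst7 and H2-Aa above it, and Spp1 and Pf4 below it, while most leading genes of monocyte-derived cells lie under 100.

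Bulk libraries of whole Ras tumours showed genes of these cells, counted over all cell types together, under CSF1R inhibition. The libraries held 31.2 to 35.8 M counts. A bulk level cannot tell fewer cells of a type from less RNA per cell. edgeR's quasi-likelihood test with Benjamini-Hochberg adjustment called 0 of 18366 genes (0%) at an adjusted p under 0.05, the smallest being 0.0722. At an unadjusted p under 0.05 it had 648 genes, 572 of them lower under PLX3397 (3.11%), and DESeq2 called 175 lower (0.872%) and 3 higher (0.0149%). In 383 genes (2.09%) all 4 PLX3397 libraries lay below all 4 vehicle libraries, and in 82 (0.446%) above.

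Fcrls stood at 59.6, 44.0, 33.3 and 16.99 CPM in the vehicle tumours and at 14.0, 13.8, 5.63 and 7.15 CPM in the PLX3397 tumours. All PLX3397 values lay below all vehicle values, with vehicle library 4 closest to them, and the log2 fold change was -1.92 (SE 0.45, edgeR adjusted p = 0.485). DESeq2 gave an adjusted p of 0.0074. P2ry12 stood at 24.7, 24.5, 28.9 and 5.57 CPM under vehicle and 15.9, 7.43, 2.21 and 3.22 under PLX3397. Its groups overlapped through vehicle library 4 (log2 -1.54, SE 0.71, edgeR adjusted p 1.00). Cx3cr1 ran from 12.97 to 93.3 CPM under vehicle and from 0.792 to 38.8 under PLX3397 (log2 -1.64, SE 1.01). Its log2 value was -2.81 without PLX3397 library 1 and -1.02 without vehicle library 3. Tmem119 at 63.0 to 126.8 against 26.1 to 120.1 CPM and Gpr34 at 1.99 to 7.26 against 0.962 to 7.26 CPM overlapped broadly, with log2 values of -0.53 and -0.84. That of Tmem119 was -1.03 without PLX3397 library 2, -0.32 without vehicle library 1, and -0.31 and -0.27 without PLX3397 libraries 3 and 4. That of Gpr34 was -1.80 without PLX3397 library 1 and -0.55 without PLX3397 library 3. In members outside cluster 3, Tmem119 stood at 63.2 CPM and Fcrls at 661 CPM, with 292.7 and 1973 CPM in cluster 3. Members were a minority of kept cells. Levels in members are UMI counts, whereas bulk levels are read counts. The bulk levels of Tmem119 and Fcrls therefore cannot be compared with those in members. The share of bulk Tmem119 counts from other cells was not tested. The 5 genes had a median of -1.54, against 0.00 for all genes, and 1 of the 5, Fcrls, was lower in all libraries.

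Of the 29 leading genes tested, 23 had a log2 fold below 0 (49.7% of all genes did), with a median of -0.58, and 5 were lower in all libraries. The median was -1.05 without PLX3397 library 1 and -0.90 without vehicle library 4. The 5 genes were Ms4a7, Ntpcr, Rab3il1, Rnase4 and Gpr65. Ms4a7 stood at 36.1, 16.2, 15.4 and 14.0 CPM under vehicle and 7.89, 6.63, 2.15 and 5.36 under PLX3397 (log2 -1.89, SE 0.47, edgeR adjusted p = 0.557, DESeq2 0.013). The groups did not overlap. Mrc1 overlapped between the groups, at 28.2 to 136.0 against 6.54 to 35.2 CPM. Spp1 was near level at 1044 to 2126 against 1027 to 1392. Gpnmb had a log2 value of 0.75. The 30 leading genes of monocyte-derived cells had a median of 0.07, with 12 below 0 and 1 lower in all libraries. Without 1 library at a time that median ran from 0.05 to 0.20, and it moved by over 1.5 times without vehicle library 1 or 4 or PLX3397 library 2 or 3.

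The lowest median of the 18 lists was that of MHC class II genes, which sat lower in members than in monocyte-derived cells. It was -2.56, with 10 of 10 below 0, 6 lower in all libraries and 6 called lower by DESeq2. Border macrophage genes had 10 of 10 below 0 (median -1.64) and 3 lower in all libraries, Clec10a, Siglec1 and Stab1. Siglec1, the sialoadhesin of macrophages, stood at 25.1 to 79.8 against 8.89 to 22.2 CPM, with an edgeR adjusted p of 0.415. Purine receptors had 6 of 6 below 0 (median -1.24), complement and Fc receptors 11 of 13 (median -0.99), homeostatic genes 13 of 18 (median -0.68), immune checkpoints 10 of 12 (median -0.55) and lysosome genes 13 of 13 (median -0.52). Disease-associated genes were mixed, with 15 of 20 below 0 and a median of -0.15. None of these genes was called by edgeR. Markers of other cell types also varied between libraries. The 6 myeloid genes of the rule summed to 983.4 to 2022 CPM under vehicle and 184.0 to 1055 under PLX3397. The 7 oligodendrocyte markers summed to 24.4 CPM in vehicle library 4, 355.7 to 860.8 in the other vehicle libraries and 281.9 to 1575 under PLX3397. The part of cell makeup in these differences was not tested.

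The vehicle and PLX3397 groups each held 2 libraries with the Y-linked gene Ddx3y and 2 without. As a difference of mean log2(CPM + 1), Fcrls was at -1.81 with and -1.76 without Ddx3y, and Ms4a7 at -1.62 and -1.81. Both genes were lower in both splits. P2ry12 was at -1.10 and -1.93, Cx3cr1 at -1.22 and -2.87, Gpr34 at -0.41 and -1.23, and Tmem119 at -0.19 and -1.30. The last 4 genes were lower in both splits and more so in the libraries without Ddx3y, a difference that was not tested.

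**Figure D5:**
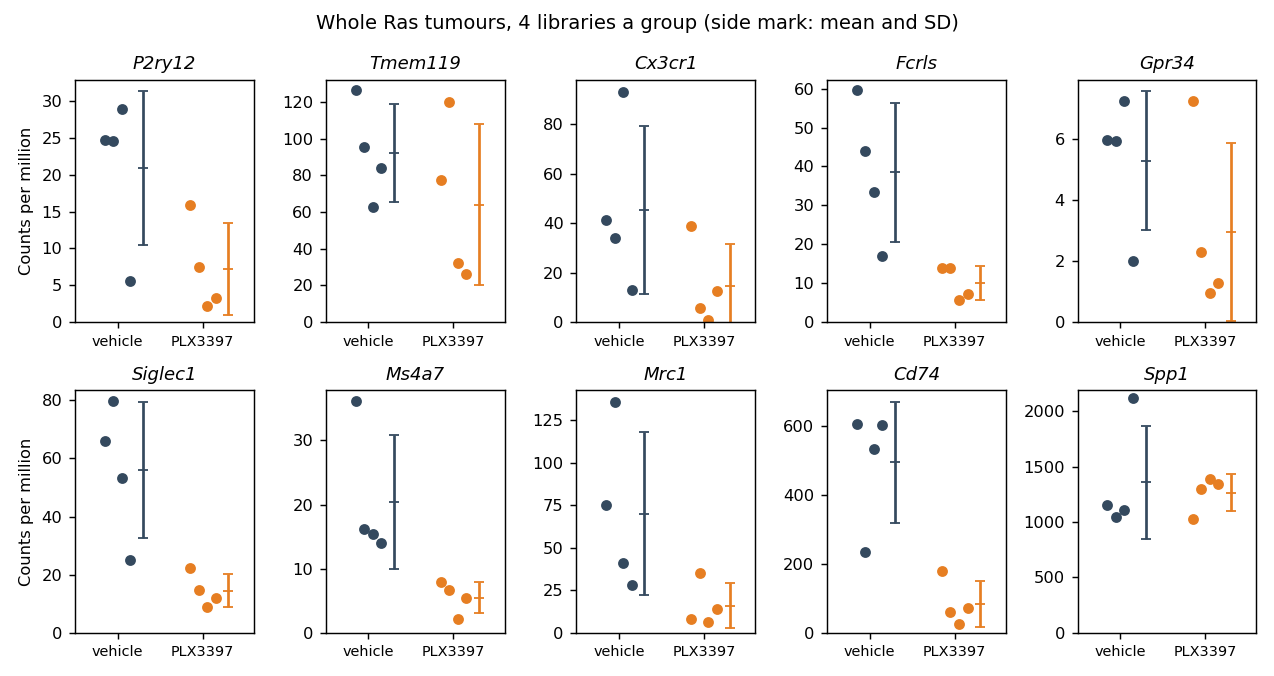
Levels in CPM (vertical axes, each from 0) of 10 genes in whole Ras tumours under vehicle and PLX3397, 1 point a library, with mean and SD beside them (SD bars cut at 0). Fcrls, Ms4a7, Siglec1 and Cd74 show no overlap between the groups, and the other 6 genes overlap.

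CD11b+ cells of PDGFB tumours were isolated before sequencing, and markers of other cells were also present, higher under PLX3397. The 3 libraries held 26.8 to 30.9 M counts. The single vehicle library is assumed to vary like the 2 PLX3397 libraries, which leaves 1 residual degree of freedom. edgeR called 956 of 15052 genes (6.35%), 268 lower (1.78%) and 688 higher (4.57%). DESeq2 called 3.99% lower and 9.79% higher. All 7 astrocyte markers were above vehicle and 5 were called higher by edgeR, with a sum of 125.0 CPM under vehicle and 714.1 and 672.7 under PLX3397. Of 9 glial and tumour markers tested edgeR called 5 higher, with a sum of 114.9 against 346.6 and 411.2 CPM, and of 6 fibroblast markers 2, with a sum of 158.7 against 599.5 and 1065 CPM. The 6 myeloid genes of the rule summed to 8304 against 8929 and 6682 CPM, with 0 called. The part of this RNA in the differences that follow was not tested. The 5 genes of the rule were each below vehicle in both PLX3397 libraries, as were 42% of all genes. edgeR called 0 of them and DESeq2 called Cx3cr1 and P2ry12 lower. Cx3cr1 stood at 731.9 CPM under vehicle and 444.3 and 341.8 under PLX3397 (edgeR adjusted p = 0.0834, DESeq2 0.00507). With no low count filter the edgeR value was 0.0448. P2ry12 stood at 144.0 against 98.7 and 61.9 CPM, Tmem119 at 264.9 against 232.4 and 166.6, Fcrls at 667.0 against 588.6 and 524.4, and Gpr34 at 69.1 against 55.5 and 38.8. Their median log2 fold change was -0.55, against 0.01 for all genes.

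Among the 29 leading genes tested, edgeR called 4 lower and 0 higher, and DESeq2 7 lower and 3 higher. Ptgs1 stood at 368.7 CPM under vehicle and at 191.3 and 188.7 under PLX3397 (log2 -0.96). Ntpcr (log2 -1.38) and the chemokines Ccl12 (-1.31) and Ccl7 (-1.32) were also lower. All calls in this comparison rest on the spread assumed for the single vehicle library. Siglech, of the homeostatic list, stood at 34.5 CPM under vehicle and at 18.05 and 17.03 under PLX3397. Homeostatic genes as a list were not lower, with 8 of 18 below 0 and a median log2 value of 0.05. Lag3 of this list went the other way, at 172.9 CPM under vehicle and 630.7 and 334.6 under PLX3397. Of the leading genes of monocyte-derived cells, 2 rose by edgeR, Chil1 and C3, and 0 fell, while DESeq2 called 7 higher and 1 lower. Cell cycle genes had 20 of 20 below 0 (49.5% of all genes were) and 10 called lower by edgeR (20 by DESeq2), with Mki67 at 448.8 against 71.3 and 102.0 CPM (edgeR adjusted p = 0.0345). MHC class II genes had 3 of 10 called lower by edgeR and 8 by DESeq2. Disease-associated genes had 2 of 20 called higher by edgeR and 8 by DESeq2, with a median log2 value of 0.69. Ms4a7 at 203.2 against 271.5 and 197.2 CPM overlapped. Apoe at 6795 against 14955 and 8903 CPM was not called.

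The 5 genes of the rule were near absent from the cultured lines, whose table was normalised separately. PDGF line 3 stood apart: the 6 myeloid genes of the rule summed to 98.2 CPM there and to at most 1.27 CPM in the other 4 lines, and Lyz2 stood at 105 CPM against at most 1.22. The highest values of the 5 genes in any of 5 lines were 0.739 CPM for P2ry12, 1.98 for Cx3cr1, 0.958 for Fcrls, 1.53 for Gpr34 and 8.68 for Tmem119. Of the 30 leading genes 16 stayed under 10 CPM in every line, among them Folr2 and Ms4a7, and 8 exceeded 100 CPM in at least 1 line, so whole-tumour counts of those 8 may include tumour cell RNA. Without PDGF line 3 these counts were also 16 and 8. Sparc ran from 143.9 to 1352 CPM, Spp1 from 1.51 to 3065 and Apoe from 47.5 to 607.3 across the lines, its highest value being in PDGF line 3 (311.2 CPM at most elsewhere).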

How the data were processed

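Single-cell data were UMI counts per gene and barcode as deposited by the authors: a 10x matrix, whose header names software version 3.1.0 and which the submitters' processing notes credit to Cell Ranger, and a Drop-seq table. Bulk data were whole-number read counts per gene deposited by the authors. For these, the submitters' processing notes list STAR 2.6.1e, featureCounts 1.6.2, the trimmers cutadapt 1.9.1 and Trim Galore 0.4.2, and the builds GRCm38 and mm10. Strand settings are not given in the sources used here. Here cells were filtered and classed by the stated rule, UMIs were pooled per set and scaled to CPM, 1 UMI was added to each set in ratios, and members were clustered with scanpy 1.11.5 (Leiden resolution 0.5, 2000 variable genes, 30 components, 15 neighbours). Intervals are exact at 95% (Poisson, or Clopper-Pearson for shares). No doublets were removed before the analysis here.

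Bulk counts were fitted in R 4.3.3 with edgeR 4.0.16 (TMM, filterByExpr, quasi-likelihood test, 18366 and 15052 genes tested), with DESeq2 1.42.0 as an alternative, and were tested on simulated data. Titles of the tumour and CD11b samples carry Ms and a number, which reads as 1 mouse each, although no label spells it out. Column names of Ras PLX3397 libraries 2 and 3 share a leading digit, unlike those of the others, and its meaning is not given. P-values measure the spread between these samples. Same-numbered Ras libraries correlated at 0.011, 0.138, -0.454 and 0.550, so the numbers were not taken to pair them. Left out were 27 date-like row names of the Ras tumour and line tables (at most 0.360% of a library), 1 unnamed row of the CD11b table and 5 columns of the line table that match no sample.

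Members and gene lists were chosen with earlier results of these data known. The text names the genes of the rule, the first 12 leading genes of each set, up to 4 genes a list by absolute log2 ratio (in bulk by adjusted p) and 21 genes named in advance. Alternatives are given below. Values of some genes on the lists are not reported here.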

Additional observations from a re-analysis of the deposited data

Results flagged for a closer look

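Each of the groups of 4 Ras tumour libraries was searched for a library far from the other 3, over 94 groups of values. Such a library was found in 4 of them, and chance gives about 1 in 20. Csf1r stood at 154.9 CPM in vehicle library 4, against 270.7 to 293.4 in the other vehicle libraries. Spp1 stood at 2126 CPM in the same library, against 1044 to 1152. H2-Aa stood at 69.6 CPM in vehicle library 2, against 207.0 to 226.0. Itga6 stood at 70.8 CPM in PLX3397 library 1, against 132.7 to 140.4.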

How the results depend on the processing

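The share of members among myeloid cells was 63.1%. It was 47.8% with a margin of 3 or more, 58.4% without Cx3cr1 and 45.1% without Fcrls. Without the minimum of 2 myeloid UMIs per 1000 it was 55.8%, with 3 or more myeloid genes still required, and with 5 per 1000 it was 70.0%. The 219 genes lower than in monocyte-derived cells became 103 without the minimum of myeloid UMIs per 1000 and 137 without Fcrls. At 50 CPM, 190 genes were higher and 374 lower. The share of members with 3 or more cell cycle genes was 13.2%, and 45.1% unthinned, 25.3% with 2 or more cell cycle genes and 8.33% with 5 or more. Alternatives chosen after seeing the data were the clustering resolutions and leaving out clusters or haemoglobin-bearing cells. They gave 180 cells for the counterpart of cluster 3 at resolution 0.3 and 21 without haemoglobin-bearing cells. The log2 ratios of 10 named genes kept their sign in all 17 alternatives each.

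In Ras tumours the count of called genes was 1 with no low count filter and 178 by DESeq2, and 0 without any single library. With the replicate number as a block it was also 0, and Fcrls was at -1.90 on the log2 scale. Without 1 library at a time the log2 value of Spp1 ran from -0.21 to 0.22, the latter without vehicle replicate 4. In CD11b+ cells 1907 genes were called with no filter and 1980 by DESeq2. Leaving out replicates there was not run, since it leaves no residual degrees of freedom. Causes of these shifts were not tested. Depth limits single-cell shares: genes near 1 UMI per cell cannot be called absent.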
